A study of Mus musculus with 6 samples.

Results

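The proteasome genes of mouse germinal vesicle (GV) oocytes were examined in libraries from wild-type (WT) mice and from mice labelled knockout (KO) for a mitofusin, a GTPase that fuses mitochondria. The genes were taken by name: every protein-coding row of the expression table whose symbol is Psma, Psmb, Psmc, Psmd, Psme, Psmf or Psmg followed only by digits. This gave 48 of 25353 genes, of which 19 belong to the core particle (Psma and Psmb), 20 to the regulatory particle (Psmc and Psmd) and 9 are activators, an inhibitor and core assembly factors (Psme, Psmf and Psmg). RNA came from 3 WT and 3 KO libraries, each a pool of 5 GV oocytes of the C57BL/6J strain, at 8 weeks of age by the protocol, although their age entry is given as P1. The genotype field of the KO samples reads Mfn1-/-, whereas the title of the series and its design text name Mfn2. Whether the deletion was global or limited to oocytes, and which mouse each pool came from, is not given in the sources used here, so p-values measure only the spread between these pools.

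The proteasome degrades proteins that carry ubiquitin chains. Its barrel-shaped core particle stacks rings of alpha subunits, which form the gate, on rings of beta subunits, some of which cut the substrate inside. A regulatory particle caps the core: its base holds a ring of ATPases that unfold the substrate, and its lid removes the ubiquitin chain. In oocytes the machine is known for destroying cyclin B and securin, which lets the meiotic divisions proceed.

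Mfn2 had normalized read counts (reads scaled by each library's size factor) of 25.5, 38.1 and 32.3 in WT and of 5.25, 5.28 and 4.50 in KO, while Mfn1 had 298.5 to 363 in WT and 379 to 398 in KO. Mfn2 fell in KO (log2 fold change -2.44, limma adjusted p = 0.00487), and Mfn1 did not pass (0.19, adjusted p = 0.482). Because the labels disagree on the gene, KO means the libraries labelled KO throughout. All 12 oocyte markers examined, among them Zp3, Gdf9 and Mos, had reads in every library, and 1 of them, Nlrp5, fell in KO (log2 fold change -0.80, limma adjusted p = 0.046). The Nlrp5 call held in edgeR (adjusted p = 0.0455) but not in DESeq2 (0.165). In limma it ended with a pseudocount of 0.5 (0.0529), TMM scaling (0.0511) and scaling to the library total (0.0592). It also ended without WT replicate 1, 2 or 3 (0.159, 0.0545 and 0.166). Summed granulosa markers had 522 to 815 normalized counts, with Cyp19a1 the highest of them, and endothelial markers 200 to 287. Other lists were uneven: the summed counts of 4 theca and luteal markers were 1892 in WT replicate 1 and 9.45 to 322 in the other libraries, and those of 7 immune markers 83.2 and 12.7 to 46.2. Of the theca and luteal markers 3 were tested and 2 fell in KO, Cyp11a1 and Lhcgr, as did the stroma marker Dcn (-2.21, adjusted p = 0.0244). In limma the call of Cyp11a1 ended without WT replicate 3 (adjusted p = 0.0782). That of Lhcgr ended without WT replicate 1 or 3 (0.141 each) or KO replicate 2 (0.0823) or 3 (0.0788). That of Dcn ended without WT replicate 1 (0.114) or 2 (0.0905) or KO replicate 3 (0.0674). Libraries held 6450191 to 7992598 reads. Over 18762 genes tested with limma, 351 rose and 264 fell in KO at an adjusted p under 0.05 (3.28% called, 1.87% higher and 1.41% lower). Rises were 57.1% of these calls, 73.5% with scaling to the library total and 46.4% with trends on GC content and length removed.

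Whether the summed level of proteasome transcripts separated the genotypes turned on the scaling. The 48 genes together held 9963, 10468 and 9994 CPM (reads scaled to a common library total) in WT and 10123, 10169 and 9431 CPM in KO. On this scale the groups overlapped. As normalized counts, the scale of the tests, the sums were 71267, 74218 and 73761 in WT and 70006, 71200 and 64583 in KO, so every KO library lay under every WT library. With 3 against 3, no exact permutation test can go below p = 0.1. As normalized counts the core particle genes summed to 36218 ± 1275 in WT and 34464 ± 3001 in KO, and the regulatory particle genes to 29492 ± 806 and 27188 ± 1398 (SD, n = 3 each). The regulatory sums did not overlap on this scale (28965 to 30419 against 26170 to 28782) but did as CPM (4049 to 4122 against 3784 to 4111), and the core sums overlapped on both. Counts are relative to the library, so less of these transcripts per oocyte and more of all others cannot be told apart.

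Levels of single genes are compared per length, as CPM per kilobase of the gene's longest principal transcript. Within the particle whose subunits are built in at equal numbers, the transcripts were far from equal. Among the 14 standard core subunits the WT mean ran from 27.9 for Psma3 to 906 for Psma7, a 32.5-fold span, and among the 6 ATPases of the base from 66.6 for Psmc6 to 301 for Psmc5. The order at the top was Psma7 (906 ± 56.2), Psmb6 (695 ± 49.9), Psmb2 (692 ± 44.6), Psmd4 (491 ± 45.1), Psma6 (397.5 ± 20.5), Psma1 (317 ± 24.8), Psmc5 (301 ± 17.8) and Psmb1 (293 ± 23.0; SD, n = 3). Psmb6 and Psmb2 differed by less than their spread, as did Psma1, Psmc5 and Psmb1. The order and the span depend on the transcript chosen. By the longest annotated transcript the 14 standard core subunits ran from 27.9 for Psma3 to 692 for Psmb2. By the longest annotated transcript Psmb2 (692) came before Psmb6 (574) and Psma7 (547), Psmd4 moved from rank 4 to 6 of 48, Psmb7 from 9 to 21 and Psmb3 from 19 to 28.

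**Figure D1:**
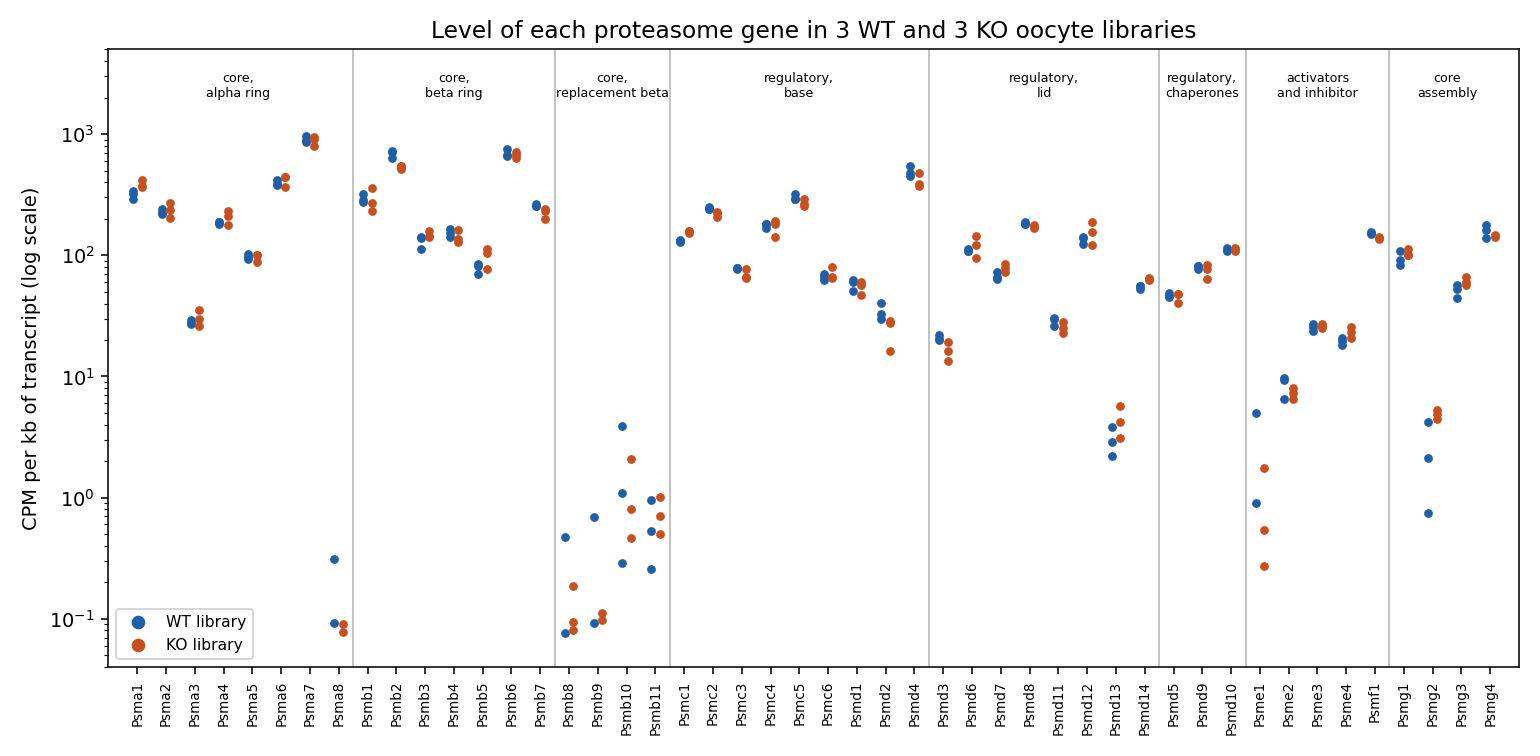
Level of each of the 48 genes as CPM per kilobase of transcript (log axis), grouped by role, with 1 point for each WT (blue) and KO (orange) library; libraries with no read are not drawn. On these transcript lengths Psma7 is highest at a WT mean of 906 (547 and rank 3 by its longest transcript), the replacement subunits Psmb8 to Psmb11 and Psma8 lie under 4, and Psmd13 and Psmg2 lie under the other members of their groups.

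Both genotypes had broadly similar values for most members. Of the 48 genes, 47 passed the filter of a normalized count of at least 1 in 3 libraries, the exception being Psmb9. Of these 47, 1 fell and none rose in limma (2.13%, against 3.28% of all genes). At an unadjusted p under 0.05 there were 7 (14.9%, against 18.0%). The log2 fold change was below 0 in 29 members (61.7%, against 51.3%), and its median was -0.09, against -0.01 over all genes tested. For 40 of the 47, the 95% interval of the difference lay within a 2-fold change in either direction, and for 36 within 1.5-fold. The intervals of the other 7 were wider or reached further: Psma8, Psmb8, Psmb10, Psmb11, Psme1, Psmd13 and Psmg2, all with a WT mean under 100 normalized counts.

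**Figure D2:**
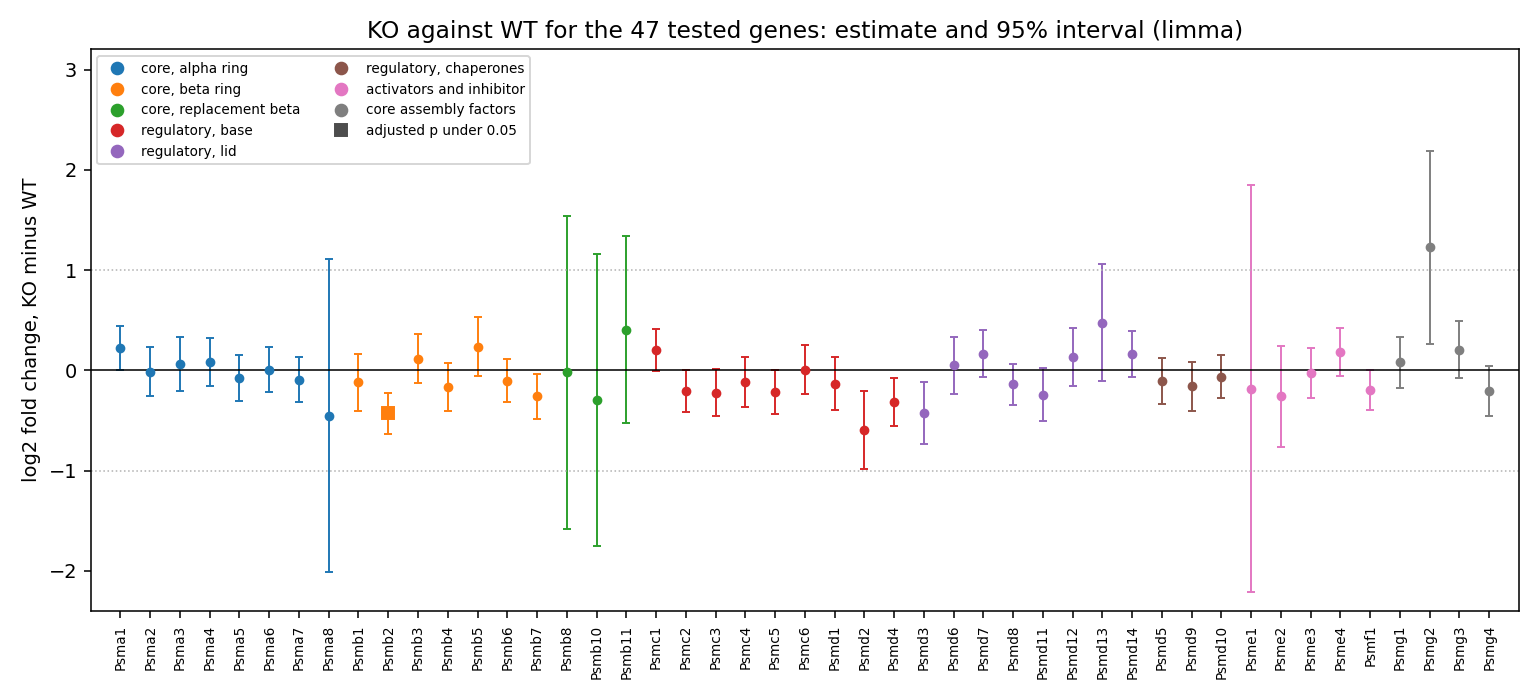
Log2 fold change of KO against WT (vertical axis) for the 47 genes tested, with its 95% interval from limma and dotted lines at a 2-fold change. Psmb2 (square, -0.43) is the gene with an adjusted p under 0.05, and the widest intervals belong to genes with few reads such as Psme1.

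The groups of 3 libraries did not overlap in 14 members (29.8%, against 23.2% of all genes tested). KO was lower in 10 of these (21.3%, against 11.7%) and higher in 4 (8.51%, against 11.5%). The 10 were Psmb2 and Psmb7 in the core, Psmc2, Psmc3, Psmc5, Psmd2, Psmd3 and Psmd8 in the regulatory particle, the inhibitor gene Psmf1 and the assembly factor gene Psmg4. The 4 were Psma1, Psmc1, Psmd14 and Psmg2. These 14 were picked out after their values were seen, and only Psmb2 among them passed the test. The 10 and the 4 hold for normalized counts. As CPM per kilobase the groups of Psmc3, Psmc5 and Psmg4 overlapped. On that scale Psmd7 was higher in every KO library (72.5 to 84.7, against 63.3 to 72.4 in WT). The share of all genes on that scale was not counted.

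In the alpha ring, whose subunits guard the entry to the core, no gene rose or fell. The median log2 fold change of its 8 genes was -0.004, with 4 above and 4 below 0. Psma1 (chromosome 7, 114264606 to 114276118) had the smallest p, with 2504, 2902 and 2838 normalized counts in WT and 3457, 3080 and 3080 in KO. Each KO library was above each WT library, but the log2 fold change of 0.22 (SE 0.10) had an adjusted p of 0.266. Psma7 (chromosome 2, 180036373 to 180042433) had 5628, 6280 and 5996 in WT and 5995, 5842 and 4984 in KO, with overlapping groups and a log2 fold change of -0.09 (adjusted p = 0.704). Its paralog Psma8, which takes the place of Psma7 in the proteasomes of male germ cells, had 7 reads over all 6 libraries against 35099 for Psma7. Per length that is 0.0108% of Psma7, and in 2 libraries Psma8 had no read, which allows up to 3 reads (0.375 to 0.465 CPM over the libraries; counting error only). Psma2 to Psma6 had log2 fold changes between -0.08 and 0.08. Psma5 and Psma4 share 70.2% and 40.9% of their 75-base windows with annotated copies, so their counts are less certain.

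Among the beta subunits, Psmb2 fell. Psmb2 (chromosome 4, 126677630 to 126709714, plus strand, GRCm38) encodes a beta subunit without a catalytic site. It had 4435, 4351 and 4065 normalized counts in WT and 3041, 3281 and 3219 in KO. All 3 KO libraries lay under all 3 WT libraries, with means of 4283 ± 194 and 3180 ± 124 (SD, n = 3 each), a ratio of 0.742. The log2 fold change was -0.43 (SE 0.10, 95% interval -0.63 to -0.22, limma adjusted p = 0.0248). The count tests on recovered reads gave adjusted p-values of 0.0195 in edgeR (which called 2.58% of its genes lower) and 0.000577 in DESeq2 (3.13%). None of its windows matches another gene, and no annotated gene overlaps it. The call ended without WT replicate 1 (adjusted p = 0.108), WT replicate 2 (0.104), WT replicate 3 (0.0755) or KO replicate 2 (0.0632) and with trends on GC content and length removed (0.061), while the log2 fold change stayed between -0.47 and -0.34 in these 5 fits.

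The other 6 standard beta genes did not pass. Psmb5, Psmb6 and Psmb7 encode the catalytic subunits, with chymotrypsin-like, caspase-like and trypsin-like activity. Psmb7 (chromosome 2, 38588036 to 38644087) had 2098, 2103 and 2270 in WT and 1952, 1876 and 1590 in KO. The groups did not overlap, and the log2 fold change of -0.26 (SE 0.11) had an adjusted p of 0.207. It overlaps Nek6 on the other strand, with which 22.7% of its windows are shared, and the library kit keeps no strand. Psmb6 (chromosome 11, 70525367 to 70527858) had 3869, 4252 and 3866 in WT and 3740, 3945 and 3491 in KO, with overlapping groups (log2 fold change -0.10, adjusted p = 0.656). Psmb5 (chromosome 14, 54614119 to 54618022) had 527, 540 and 467 in WT and 479, 657 and 690 in KO. KO replicate 1 lay within the WT range and the other KO libraries above it (log2 fold change 0.24, SE 0.14, adjusted p = 0.407). Copies such as Gm3375 share 75.8% of the windows of Psmb5. Psmb1, Psmb3 and Psmb4 lay between -0.17 and 0.12. Of the windows of Psmb3, 67.9% are shared with genes such as Gm4950.

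Promoters are shown for 2 catalytic subunits and for the ubiquitin receptor gene Psmd4, because each holds one of the motifs known to bind regulators of proteasome genes. Proteasome genes are raised together by the factor Nfe2l1 through the antioxidant response element, searched here by its core TGACNNNGC, and the replacement subunits by interferon, searched by the core of the interferon-stimulated response element (TTTC and TTTC, 2 bases apart). The RefSeq table (GRCm38.p6) held promoters for 40 of the 48 members. Searched on both strands over 250 bases before and 50 after the start site, TGACNNNGC was in 6 of the 40 (15%, against 14.0% of all genes), CCAAT in 14 (35%, against 41.1%) and the interferon element in 5 (12.5%, against 3.99%). The 5 were Psmb3, Psmd4, Psmd9, Psme1 and Psmg4, none of them a replacement subunit. A match describes letters and shows no binding. The 250 bases before the start site follow, 5′ to 3′, with the match in capitals (TGACNNNGC in Psmb5 and Psmb6, starting 47 and 9 bases before the start site, and the interferon element in Psmd4, starting 80 bases before it).
Psmb5, chr14:54617996-54618245, minus strand: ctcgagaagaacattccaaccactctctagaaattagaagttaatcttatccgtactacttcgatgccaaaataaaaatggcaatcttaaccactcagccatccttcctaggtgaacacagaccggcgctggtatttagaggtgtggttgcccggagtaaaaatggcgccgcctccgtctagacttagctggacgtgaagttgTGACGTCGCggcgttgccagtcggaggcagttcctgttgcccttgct
Psmb6, chr11:70525107-70525356, plus strand: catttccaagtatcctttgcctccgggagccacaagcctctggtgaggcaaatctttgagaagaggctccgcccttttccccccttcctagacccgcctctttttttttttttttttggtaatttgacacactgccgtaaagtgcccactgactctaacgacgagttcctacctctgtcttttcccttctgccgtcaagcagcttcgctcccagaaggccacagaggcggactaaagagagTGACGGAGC
Psmd4, chr3:95042615-95042864, minus strand: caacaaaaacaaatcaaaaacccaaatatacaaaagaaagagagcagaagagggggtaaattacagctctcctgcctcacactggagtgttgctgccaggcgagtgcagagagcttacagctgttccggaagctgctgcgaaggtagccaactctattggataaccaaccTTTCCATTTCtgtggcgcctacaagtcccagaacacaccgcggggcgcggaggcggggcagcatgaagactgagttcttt

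Subunits that replace the standard catalytic ones had few reads, and Psmb8 and Psmb9 were close to the detection limit. Psmb8, Psmb9 and Psmb10 form the immunoproteasome, which interferon induces in immune and other cells, and Psmb11 belongs to the thymus form. In WT replicates 1 to 3 and KO replicates 1 to 3, Psmb8 had 5, 0, 1, 1, 2 and 1 reads and Psmb9 had 6, 0, 1, 1, 0 and 1. Psmb10 had 33, 11, 3, 18, 4 and 8 reads. Over all libraries and per length, Psmb8 stood at 0.162% of Psmb5, Psmb9 at 0.0227% of Psmb6 and Psmb10 at 0.567% of Psmb7. WT replicate 1 held 5 of the 10 reads of Psmb8, 6 of the 9 of Psmb9 and 33 of the 77 of Psmb10. It is also the library with the highest sum of immune markers (83.2, against 12.7 to 46.2; 1 of the 7 markers had no read there and 1 to 6 in the others). The immune marker Cd68 was not highest there (18.9 normalized counts, against 21.4 and 21.2 in WT replicates 2 and 3). Also highest there were the summed granulosa, theca and luteal, stroma, surface epithelium and oocyte markers, but not the endothelial ones. The part of other cells in the reads of Psmb8, Psmb9 and Psmb10 was not tested. None of the 3 tested replacement genes (Psmb8, Psmb10 and Psmb11) passed. Psmb11, which lies beside Psmb5 on chromosome 14 (54621433 to 54629556), was less uneven, with 7, 31, 18, 14, 20 and 33 reads (log2 fold change 0.40, SE 0.44, adjusted p = 0.694).

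In the regulatory particle, no gene rose or fell among 20 (3 had an unadjusted p under 0.05 in limma, 15%, against 18.0% of all genes). The median log2 fold change was -0.12, with 13 genes below 0. As normalized counts, groups did not overlap in 8: KO was lower in 6 (30%, against 11.7%) and higher in 2 (10%, against 11.5%). As CPM, the groups of Psmc3 and Psmc5 overlapped, and Psmd7 was higher in every KO library. In DESeq2 1 gene was lower, Psmd2 (3.13% of all genes were), and none was higher. edgeR called none (2.58% of all genes were lower). For the core particle the median was -0.05 over 18 tested genes with 11 below 0. The sign of that median turned without KO replicate 3 (0.054), and the regulatory median was -0.066 without KO replicate 1.

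The 9 genes of the base had a median of -0.21 with 7 below 0 (77.8%, against 51.3% of all genes). As normalized counts, KO lay under WT without overlap in 4 (44.4%, against 11.7%) and above it in 1. As CPM per kilobase the groups of Psmc3 and Psmc5 overlapped. There KO replicate 2 stood at 77.3 for Psmc3, above WT replicate 1 (76.4), and at 291 for Psmc5, above WT replicate 2 (289). The 8 lid genes had a median of 0.09 with 3 below 0 (51.3% of all genes were). In the lid, as normalized counts, KO was lower without overlap in 2 of 8 (11.7% of all genes) and higher in 1 (11.5%). As CPM, Psmd7 was higher without overlap too. The difference between base and lid was not tested. Psmd2 and Psmd1 are the large scaffold subunits of the base, and Psmd2 docks the shuttle proteins that deliver substrates. Psmd2 (chromosome 16, 20651652 to 20663414) had 856, 620 and 714 normalized counts in WT and 330, 595 and 555 in KO. KO replicate 1 was far under the rest, and the other KO libraries lay just under the lowest WT library. Its log2 fold change of -0.60 (SE 0.18) was the lowest of all members here and had an adjusted p of 0.0849 in limma and 0.0842 in edgeR. It passed in DESeq2 (0.0439), in limma with no filter on low values (0.0482) and with trends on GC content and length removed (0.0465). Without KO replicate 1 it was -0.33 (adjusted p = 0.154), less low than Psmd3 and Psmd4 in that fit. Pseudogenes such as Gm5422 share 35.3% of its windows.

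Psmd4, a receptor that binds the ubiquitin chain, was the most abundant transcript of the regulatory particle per length. Psmd4 (chromosome 3, 95032694 to 95042614) had 4314, 5109 and 4724 in WT and 4384, 3645 and 3399 in KO. KO replicate 1 lay within the WT range and the other KO libraries under it. The log2 fold change was -0.31 (SE 0.11, adjusted p = 0.146), and without KO replicate 1 it was -0.42 with an adjusted p of 0.0174. Psmd1 lay at -0.13 (adjusted p = 0.634). The 6 ATPases of the base, Psmc1 to Psmc6, lay between -0.22 and 0.20. As normalized counts, Psmc2, Psmc3 and Psmc5 were lower in every KO library, from -0.22 to -0.21, with adjusted p-values of 0.281, 0.318 and 0.29. Psmc1 was higher in every KO library, with 1518, 1486 and 1498 in WT and 1668, 1771 and 1740 in KO (0.20, SE 0.10, adjusted p = 0.291). Genes such as Gm9575 share 31.1% of the windows of Psmc1.

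In the lid, Psmd3 had the smallest p. Psmd3 (chromosome 11, 98682554 to 98695979), a structural subunit, had 313, 333 and 319 in WT and 241, 202 and 281 in KO. All KO libraries lay under all WT libraries, with a log2 fold change of -0.42 (SE 0.14, adjusted p = 0.12). Psmd11, another structural subunit, had 621, 524 and 625 in WT and 554, 497 and 445 in KO, with overlapping groups (-0.24, SE 0.13, adjusted p = 0.329). Other genes share 28.8% of the windows of Psmd11. Psmd14, the deubiquitinase that cuts the chain from the substrate, had 586, 605 and 640 in WT and 691, 691 and 665 in KO, higher without overlap (0.16, SE 0.11, adjusted p = 0.476). Psmd8, the most abundant lid transcript per length, had 1978, 2050 and 2067 in WT and 1899, 1861 and 1771 in KO (-0.14, SE 0.10, adjusted p = 0.489). Psmd6, Psmd7 and Psmd12 lay between 0.05 and 0.17.

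Psmd13 stood apart from the other lid genes in both genotypes. This structural subunit (chromosome 7, 140881968 to 140898643) had 41.0, 53.9 and 32.3 normalized counts in WT and 43.1, 58.1 and 78.2 in KO. Per length its WT level was 2.97 CPM per kilobase, while the lowest of the other 7 lid genes, Psmd3, stood at 20.8, 6.99 times as much (15.4 by its longest transcript). The groups overlapped, and the log2 fold change of 0.47 (SE 0.28) had an adjusted p of 0.392. Sirt3, which overlaps it on the other strand, shares 14.3% of its windows.

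The chaperones that assemble the base, Psmd5, Psmd9 and Psmd10, were at similar levels in both genotypes. Psmd9 had 1419, 1504 and 1560 in WT and 1147, 1509 and 1380 in KO (-0.16, adjusted p = 0.513). Psmd5 had 1528, 1401 and 1503 in WT and 1220, 1466 and 1454 in KO (-0.10, adjusted p = 0.683). In both, KO replicate 1 was the low library and the groups overlapped. Psmd10 had 1067 to 1175 in all libraries (-0.06, adjusted p = 0.806).

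**Figure D3:**
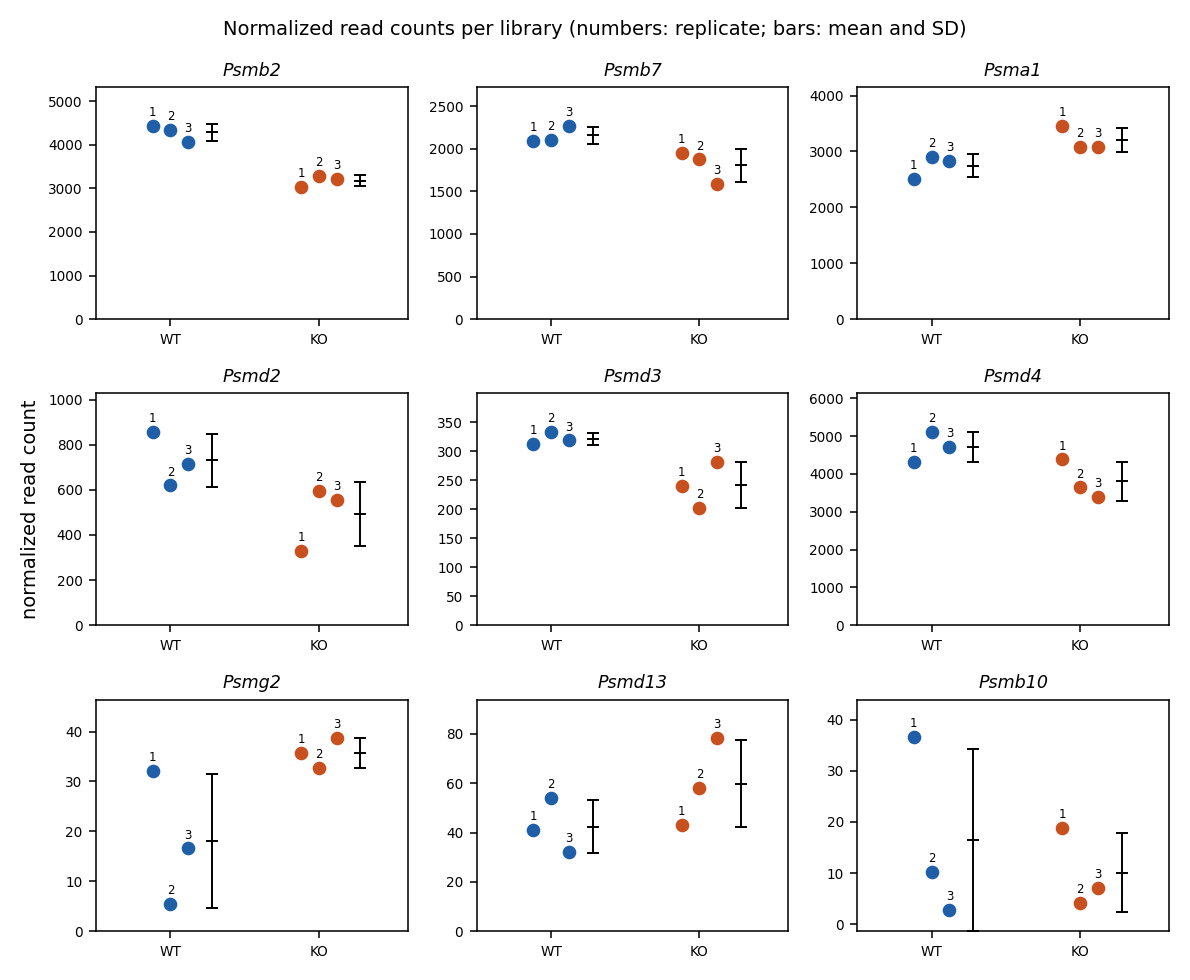
Normalized read counts per library for 9 genes of the core, the regulatory particle and the assembly factors, with replicate numbers beside the points and the mean and SD of each group to the right. The 3 KO values of Psmb2 (3041 to 3281) lie under its WT values (4065 to 4435), and Psmd2 is lowest in KO replicate 1 at 330.

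The KO libraries were not alike in the balance of core and regulatory particle. The ratio of summed counts of core to regulatory genes was 1.21, 1.29 and 1.18 in WT and 1.41, 1.23 and 1.17 in KO. KO replicate 1 was above all other libraries. In that library the median difference from the WT mean was 0.15 on the log2 scale for the alpha ring and -0.26 for the base. In KO replicate 3 it was -0.18 for the alpha ring, -0.23 for the standard beta genes and -0.30 for the base. In KO replicate 2 these medians were 0.03, -0.02 and -0.06.

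**Figure D4:**
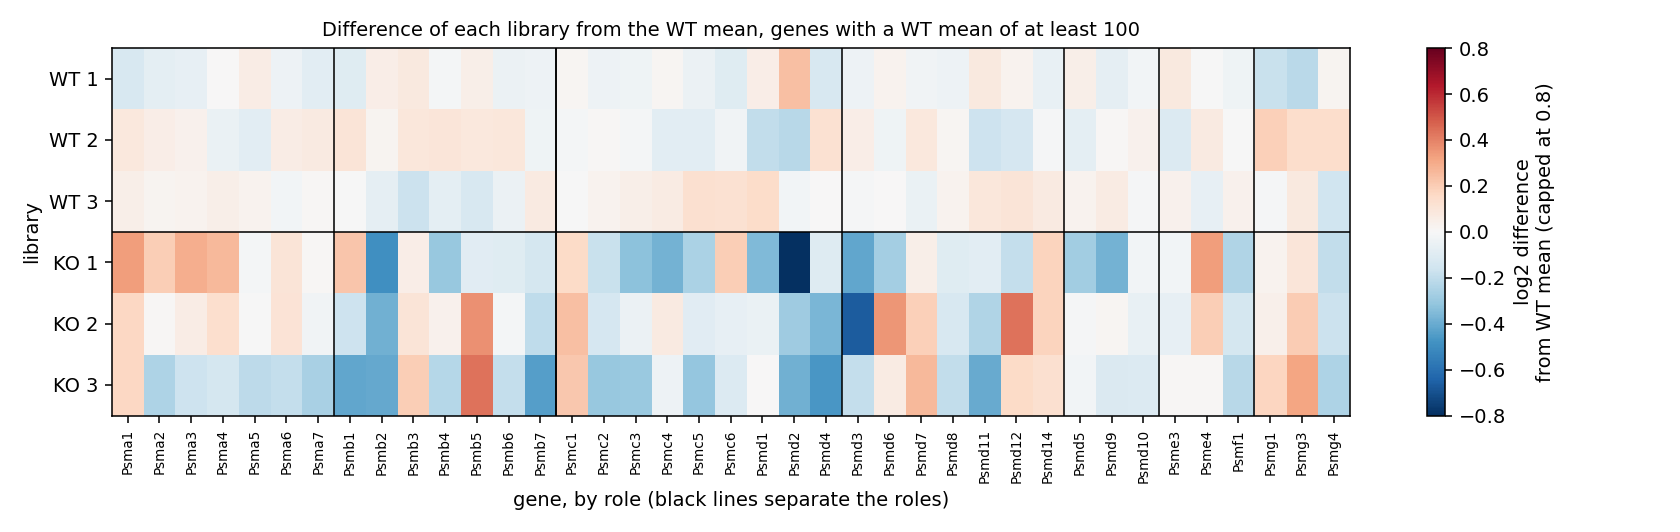
Log2 difference of each library (rows) from the WT mean for the 39 genes with a WT mean of at least 100 normalized counts (columns, by role), with colours capped at 0.8. Psmb2 is lower in all 3 KO libraries, whereas Psmd2 is most reduced in KO replicate 1 and the alpha ring is higher in KO replicate 1 than in KO replicate 3.

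Among activators and the inhibitor, no gene rose or fell. Psmf1, which encodes the proteasome inhibitor protein PI31 (chromosome 2, 151715812 to 151744186), was by far the most abundant of the group at 153 CPM per kilobase. It had 4108, 4183 and 4305 in WT and 3560, 3808 and 3603 in KO. All KO libraries lay lower, with a log2 fold change of -0.20 (SE 0.10, adjusted p = 0.283). Psme4, which caps the core without needing ubiquitin, had 910, 961 and 871 in WT and 1153, 1048 and 917 in KO (0.18, SE 0.11, adjusted p = 0.438). Psme3, the nuclear activator, had 452 to 515 in all 6 libraries (-0.03, adjusted p = 0.936). Its interferon-inducible relatives were lower: Psme2 had 43.2 to 66.5 normalized counts, 69.4% of its windows shared with Psme2b, and Psme1 had 36, 0, 8, 2, 4 and 15 reads. For Psme1 too, WT replicate 1 held 36 of 65 reads, and the direction of its log2 fold change (-0.18, SE 0.96) turned without that library (1.09).

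The assembly factors Psmg1 to Psmg4 act in pairs, Psmg1 with Psmg2 and Psmg3 with Psmg4, to build the alpha ring. Psmg2 (chromosome 18, 67641599 to 67654162) had 32.2, 5.58 and 16.6 normalized counts in WT and 35.7, 32.8 and 38.7 in KO, from 29, 6, 18, 34, 31 and 43 reads. Each KO library was above each WT library, WT replicate 1 by little. Its log2 fold change of 1.23 (SE 0.45) was the highest of all members and had an adjusted p of 0.156 in limma and 0.183 in edgeR. It moved with single WT libraries: without WT replicate 1 it was 1.77 (adjusted p = 0.0497) and without WT replicate 2 it was 0.60 (adjusted p = 0.456). Its partner Psmg1 had 627, 810 and 705 in WT and 723, 730 and 799 in KO (0.08, adjusted p = 0.791). Per length Psmg2 stood at 2.37 CPM per kilobase in WT and the lowest of the other 3, Psmg3, at 51.1, 21.6 times as much; by the longest transcripts they stood at 1.93 and 18.8. Psmg4 had 647, 701 and 570 normalized counts in WT and 556, 566 and 536 in KO (-0.20, SE 0.12, adjusted p = 0.383). The groups did not overlap on that scale but did as CPM. Psmg3 had a log2 fold change of 0.21 (adjusted p = 0.457). Psmg3 shares 21.2% of its windows with the overlapping gene Gm26938.

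The wider pathway was read from lists of cofactors, shuttle proteins and the p97 complex, regulators of proteasome transcription, and ubiquitin genes. Of 42 listed genes 41 were tested, and none rose or fell in limma, edgeR or DESeq2. In limma 7 of the 41 had an unadjusted p under 0.05 (18.0% of all genes did) and 20 were below 0 (51.3% of all genes), with a median of 0.06, so these shares were close to those of all genes. Among 14 cofactors the smallest p was that of Pomp, the maturation factor of the core, with 1402, 1252 and 1258 in WT and 931, 1095 and 1076 in KO. Its groups did not overlap (log2 fold change -0.34, SE 0.11, adjusted p = 0.104). Adrm1, a ubiquitin receptor of the base, followed at -0.25 (adjusted p = 0.25). Among 12 shuttle and p97 genes the smallest p was that of Ddi2 (0.40, adjusted p = 0.125), the protease that activates Nfe2l1.

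Nfe2l1 itself had 157, 169 and 190 normalized counts in WT and 163, 183 and 165 in KO (-0.02, SE 0.15, adjusted p = 0.971). Of the 9 regulators, the heat shock factor gene Hsf1 had the smallest p, with 471, 498 and 442 in WT and 366, 377 and 372 in KO (-0.34, SE 0.12, adjusted p = 0.131), followed by Maff at -0.71 (adjusted p = 0.258). Of the ubiquitin genes, Uba1, which encodes the main activating enzyme, was at 0.18 (adjusted p = 0.456). Ubb supplied most of the ubiquitin transcripts, with 70413 to 84244 normalized counts in WT and 68050 to 87730 in KO.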

How the data were processed

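Gene expression was measured in 3 WT and 3 KO pools of GV oocytes. Per the labels' protocols, cDNA was amplified by Smart-Seq2 and libraries were made with Nextera XT and read as 75-base pairs, without strand or molecular identifiers. The submitters' processing notes name GRCm38 and mm10 as builds and STAR, DESeq2, DESeq, FastQC and cutadapt as tools, without versions. The deposited table, whose header names Partek and DESeq2, holds a signal per gene, which is a read count scaled by a factor per library. Division by what 1 read is worth returned whole reads in 100% of non-zero entries (tolerance 0.1 reads), with 6450191 to 7992598 per library.

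The 18762 genes that reached 1 normalized count in 3 libraries entered limma-trend (limma 3.58.1, R 4.3.3) as log2(value + 1), with 3 KO set against 3 WT libraries and p-values adjusted by Benjamini-Hochberg over all genes at 0.05. Fold changes are on that scale, where those of low genes can be smaller or larger than in the count tests. Psmb10 was at -0.30, against -0.67 in edgeR, and Psmg2 at 1.23, against 1.01 in edgeR. The design named this test for normalized values. edgeR 4.0.16 (13078 genes, 451 higher and 338 lower) and DESeq2 1.42.0 on recovered reads, other pseudocounts, filters and scalings, a replicate block, removal of GC and length trends and leaving out each library were alternatives. The fit was tested on simulated data.

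Members and lists were chosen with earlier results of these data known. Mfn1, Mfn2 and members past the threshold are named, then in each role group the 2 members of smallest p and the highest and lowest level per length, and from each pathway list its calls or the 2 genes of smallest p, except that some results are not reported here. Other members were named after their values were seen. Lengths come from GENCODE M21, whose genes have the same coordinates as 44 of the 48 members (the deposited end is 1 base past the annotated one). Copies were found by aligning 75-base windows, taken every 25 bases, to all GENCODE transcripts with minimap2 2.31-r1302, with at most 1 mismatch. Same-numbered WT and KO libraries were not paired, since their deviations from the group means had correlations of -0.08, -0.02 and -0.04.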

Additional observations from a re-analysis of the deposited data

How the results depend on the processing

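Of 524 values of the 34 named genes tested over 16 alternatives, 502 kept their direction and side of the threshold. Psmb2 stayed lower in all 16 and lost its call in 6, so 0 core genes fell with trends on GC content and length removed (adjusted p = 0.061), with the replicate block (0.0647) and without WT replicate 1, 2 or 3 or KO replicate 2. Leaving out 1 library gave 0 to 1 core and 0 to 1 regulatory falls. In the regulatory particle 1 gene fell, Psmd2, with no filter, in DESeq2 and with the trends removed, and Psmd4 without KO replicate 1. Psmg2 passed without WT replicate 1. The median of the core ranged from -0.10 to 0.054 and that of the regulatory particle from -0.16 to -0.066 when 1 library was left out. The latter was -0.066 with scaling to the library total, where the median over all genes was 0.042 (-0.01 in the main fit). Over all genes, leaving out 1 library gave 71 to 459 rises and 41 to 430 falls, and the replicate block 246 rises and 175 falls, though nothing in the labels makes the number a pairing. The block changed no other call of a named gene. Direction turned only where no call was made. Psmb10 turned without WT replicate 1 (0.54) and KO replicate 2 (0.13), Psmb11 without WT replicate 1 (-0.059), Psmb6 with the trends removed (0.0077), Psmb8 with a pseudocount of 0.5 (0.13), library-total scaling (0.012), the trends removed (0.037) and without KO replicate 3 (0.12), and Psme1 with a pseudocount of 0.5 (0.036), without WT replicate 1 (1.09) and without KO replicate 1 (0.31). Leaving out 1 library gave -1.12 to 0.54 for Psmb10, -0.059 to 0.82 for Psmb11, -0.63 to 0.12 for Psmb8 and -1.59 to 1.09 for Psme1. The cause was not tested. Standard errors were 0.10 to 0.18 for members with a WT mean of at least 100 normalized counts and 0.24 to 0.96 for lower ones, so the latter's differences were measured least precisely.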

Other observations

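Genes that interferon induces and that present antigen, the setting in which the immunoproteasome is known to act, were mostly near 0. Irf1 had 1288 to 1824 normalized counts over the 6 libraries and B2m 363 to 443, while Ifit3, Isg15 and Nlrc5 had reads in 1 library each. Of 11 such genes measured, 8 were tested in limma, and 0 had an unadjusted p under 0.05 (18.0% of all genes tested did). Tap2, Tapbp, Ifit1 and Erap1 among them had few reads, with standard errors of 0.44 to 0.76. With so few genes, a count of 0 does not show an absence of change. Neither edgeR nor DESeq2 called any. Rows named as proteasome pseudogenes carried few reads, with means over the 6 libraries of 0.665 normalized counts for Psmb5-ps, 15.8 for Psmb6-ps2 and 10.4 for Psmb7-ps2.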
